A study of Mus musculus with 8 samples.

Results

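Tubulins, neurofilaments and microtubule-associated proteins build the inner skeleton of the neuron, and 40 of the 22337 genes in the table belong to them by symbol. The set holds the alpha, beta and gamma tubulin genes, 11 genes named Map and the tau gene Mapt, the 4 stathmin genes, the 3 neurofilament subunit genes with the alpha-internexin gene Ina, and Dcx, Dclk1 and Gap43. The genes were taken by a rule on their names, through their Ensembl identifiers. No measured value is part of that rule, but earlier results of these data were known when it was chosen. They were measured by RNA-seq in tissue labelled nucleus accumbens, the ventral striatum, of male C57BL/6 mice. The 4 morphine libraries came from mice under chronic exposure to morphine, an opioid, and the 4 saline libraries from mice given saline. Both groups share strain and sex, no allele or other agent is named for either, and the sources used here do not give age, dose, schedule or any pooling. Whether each library came from its own mouse is not stated, so a p-value covers only the spread among these 8 libraries, part of which may be technical.

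Microtubules are hollow tubes of alpha and beta tubulin, started from rings that hold gamma tubulin, and they carry transport along axons and dendrites. Proteins such as MAP2 in dendrites and tau in axons bind and steady them, while stathmins bind free tubulin and promote disassembly. Neurofilaments are intermediate filaments that set the calibre of axons; in the brain they are built from the light, medium and heavy subunits together with alpha-internexin. Several tubulin genes are close copies of each other and differ chiefly in when and where they are used.

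Levels are FPKM (cDNA fragments per kilobase of transcript and per unit of library size). They allow for transcript length and library size, but not for shifts in the make-up of a library. The summed FPKM ranged from 480004 in saline replicate 3 to 540104 in saline replicate 1, and results under other scalings are given at the end. Differences are those of log2(FPKM + 1), morphine minus saline, with standard errors and Benjamini-Hochberg adjusted p-values from limma over the 12536 genes that reached 1 FPKM in at least 4 libraries. Of the 40 genes, 37 were tested. Tubb1, a beta tubulin of platelets, and the testis alpha tubulins Tuba3a and Tuba3b stayed at or below 0.19 FPKM, and Tuba3b was listed at 0 in all 8 libraries.

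Nefl, the light neurofilament subunit, fell and Tubb2a, the most abundant beta tubulin, rose in the morphine libraries. These were 2 of the 37 genes tested, 1 in each direction, where 1.04% of all tested genes rose and 1.48% fell (130 and 186 genes, or 77 and 219 once genes of the mitochondrial genome were taken out and the others rescaled). Both calls lay close to the threshold and were lost in most alternative settings, while both directions held in all 16. At an unadjusted p under 0.05, 10 of the 37 were higher and 4 lower with morphine, where 10.0% and 10.1% of all tested genes were. In 5 of the 37 every morphine value lay above every saline value and in 1 every morphine value lay below, where 6.56% and 6.1% of all tested genes did. The difference was positive in 28 of the 37 and in 6520 of all 12536 genes, with a median of 0.19 against 0.01.

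The libraries differed in markers of brain region and of other cell types, and saline replicate 3 stood apart. The mean level of 22 markers of striatal projection neurons (log2 scale) lay between 3.07 and 3.59 in the morphine libraries, and between 4.75 and 5.07 in saline replicates 1, 2 and 4, with 7.02 in saline replicate 3, and 13 of the 22 fell. That of 13 cortical glutamatergic markers lay between 4.19 and 4.40 in the morphine libraries, and 1 of the 13 rose. This mean lay between 4.03 and 4.09 in saline replicates 1, 2 and 4, with 2.94 in saline replicate 3. Astrocyte markers lay between 6.14 and 6.50 with morphine and between 6.64 and 7.03 with saline on the same scale, and 3 of 12 fell. Endothelial markers lay between 3.24 and 3.36 with morphine and between 3.62 and 3.95 with saline, and 3 of 9 fell. Genes of the mitochondrial genome took 6.09 to 7.94% of all FPKM with morphine and 9.09 to 12.6% with saline. The groups did not overlap in any of these, as in the calls of Nefl and Tubb2a. Saline replicate 3 held the lowest of the 8 values for 20 of the 37 skeleton genes (54.05%) and for 19.75% of all tested genes. The summed level of 11 markers of neurons in general was 4058 to 4585 FPKM with morphine and 3025 to 3911 FPKM with saline, and 1 of them rose. With the mean of the striatal markers as a covariate, 10 of the 28 positive differences stayed positive, 18 turned negative, 1 negative difference turned positive (Map4), and the median of the 37 was −0.11. The groups did not overlap in that mean, so this fit tells its effect and that of morphine apart poorly, and its turned signs decide nothing. Striatal markers were thus present in all libraries, but lower than cortical ones on this scale in every morphine library. What these shifts contribute to the results was not tested, and in bulk tissue fewer cells of a type and less RNA per cell cannot be told apart.

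**Figure D1:**
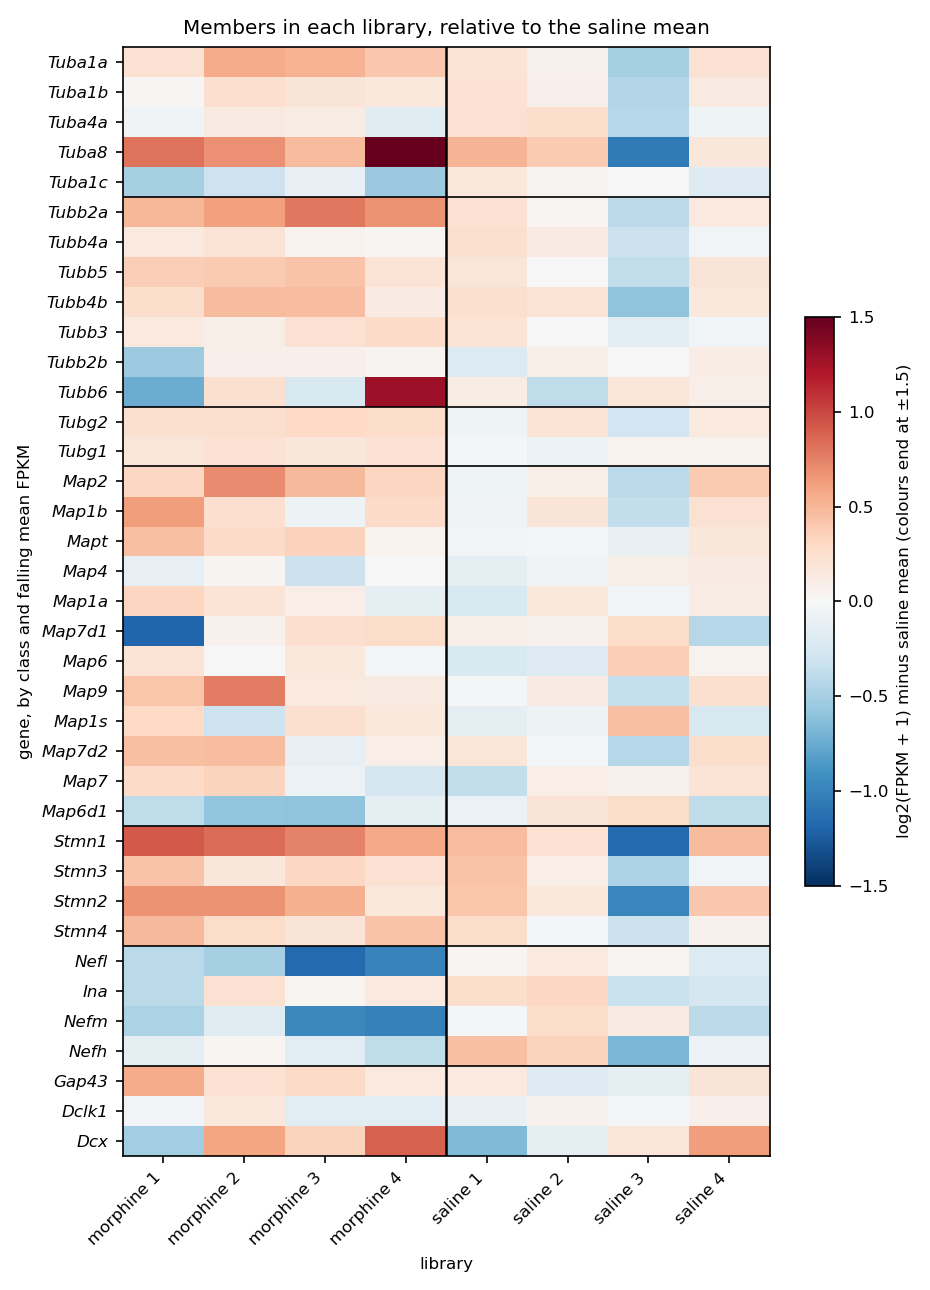
Level of each of the 37 tested genes (rows, grouped by class) in each library (columns, morphine left of saline), as log2(FPKM + 1) minus the mean of the 4 saline libraries. Nefl and Nefm are below the saline mean in all 4 morphine libraries, Tubb2a is above it in all 4, and saline replicate 3 is lowest for 20 of the 37 genes.

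Beta tubulins were led by Tubb2a, which has a near-copy in Tubb2b, so some of the bases that tell the copies apart are shown before their levels. Tubb2a (ENSMUSG00000058672) spans bases 34074274 to 34078007 of chromosome 13, minus strand, GRCm38, and Tubb2b lies 48740 bases away on the same strand with no coding gene between them. Their coding sequences are equally long, 1335 bases before the stop, and differ at 47 of them. Capitals mark the bases that differ from the sister gene in the last 60 coding bases, which encode the acidic tail that reaches out from the microtubule surface (GENCODE M21; chr13:34074471-34074530 and chr13:34127474-34127533). The marked bases leave the encoded amino acids the same in both genes.
Tubb2a: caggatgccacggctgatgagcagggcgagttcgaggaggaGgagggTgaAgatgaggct
Tubb2b: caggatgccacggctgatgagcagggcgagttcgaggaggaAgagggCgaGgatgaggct
The longest stretch with no difference runs over 551 coding bases, and 43.2% of the 75-base windows of the Tubb2a transcript, against 32.2% of those of Tubb2b, also occur in a transcript of another annotated gene. Reads from such stretches cannot be assigned to 1 gene with certainty.

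Tubb2a measured 897, 974, 1099 and 1015 FPKM in the morphine libraries and 739, 649, 484 and 702 FPKM in the saline libraries. Every morphine value lay above every saline value, and saline replicate 3 was the lowest. The means were 996 ± 84.0 FPKM with morphine and 644 ± 112 FPKM with saline (SD, n = 4 each), a difference of 0.64 ± 0.15 (SE, adjusted p = 0.0487). Without saline replicate 3 the difference was 0.51 and still passed (adjusted p = 0.0478), and it did not pass without any other single library (adjusted p = 0.0526 to 0.149). With the striatal markers as a covariate it was 0.11 ± 0.19.

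Tubb2b, the sister gene, did not pass. It measured 40.6, 62.5, 62.8 and 61.1 FPKM with morphine and 51.4, 63.4, 59.3 and 64.5 FPKM with saline, with morphine replicate 1 lowest and the groups overlapping (difference −0.09 ± 0.15 SE, adjusted p = 0.792). Within each library Tubb2a stood 22.1, 15.6, 17.5 and 16.6 times as high as Tubb2b with morphine, against 14.4, 10.2, 8.16 and 10.9 times with saline. This ratio does not depend on how libraries are scaled, and its groups did not overlap. It uses the same Tubb2a values as the call, and it rests on how shared reads were apportioned between the copies.

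The upstream sequence of Tubb2a is shown because it was the only tubulin gene to pass and the only 1 of the 28 skeleton genes with an entry in the promoter table that holds a cAMP response element. The sister gene Tubb2b, and Nefl and Nefm, have no entry there and were not searched. The Tubb2a sequence is given from 250 bases before the start up to the start (chr13:34078009-34078258, minus strand, RefSeq, GRCm38.p6). Capitals mark that element, TGACGTCA, whose first base lies 59 bases upstream of the start, and a TATA motif, TATAAA.
Tubb2a upstream: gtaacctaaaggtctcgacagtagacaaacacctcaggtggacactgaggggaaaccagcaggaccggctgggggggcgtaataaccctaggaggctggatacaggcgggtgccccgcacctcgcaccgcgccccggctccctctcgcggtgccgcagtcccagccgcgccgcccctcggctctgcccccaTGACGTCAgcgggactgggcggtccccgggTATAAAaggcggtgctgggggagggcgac
Over both strands of 32851 such windows, TGACGTCA occurs in 1.55% and TATAAA in 12.4%; the motifs do not overlap in Tubb2a. TATAAA was found for 4 of the 28 genes, Tubb2a among them, and a match of letters shows no binding.

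The other beta tubulins did not pass. Tubb4a, an isotype of mature brain, measured 619.9, 645, 579 and 568 FPKM with morphine and 662, 608, 448 and 544 FPKM with saline (0.11 ± 0.13 SE, adjusted p = 0.706). Tubb5, the isotype found in most tissues, measured 356, 362, 371 and 316 FPKM with morphine and 313, 273, 212 and 315 FPKM with saline. Its groups were just apart (0.35 ± 0.14 SE, adjusted p = 0.19). Tubb4b averaged 333 ± 38.9 FPKM with morphine and 270.4 ± 65.0 FPKM with saline (SD, n = 4 each; 0.33 ± 0.19 SE). Tubb3, the neuron-specific isotype used as a neuronal marker, measured 282, 273, 300.2 and 313 FPKM with morphine and 294, 257, 227 and 249 FPKM with saline (0.19 ± 0.11 SE, adjusted p = 0.360). Saline replicate 1 lay among its morphine values. Tubb6, a minor isotype in brain, measured 1.06, 3.08, 1.92 and 7.44 FPKM with morphine and 2.73, 1.66, 2.91 and 2.68 FPKM with saline (0.13 ± 0.36 SE, adjusted p = 0.873). These values rest on about 36 to 186 fragments with morphine and 42 to 75 with saline, and morphine replicate 4 was highest.

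Among alpha tubulins none passed (2 higher and 1 lower at an unadjusted p under 0.05 in limma). Tuba1a, the isotype of differentiating neurons, was the most abundant of the 40 genes. It measured 1791, 2258, 2203 and 2028 FPKM with morphine and 1769, 1595, 1082 and 1792 FPKM with saline, with saline replicate 3 lowest and the groups overlapping at their edge (0.43 ± 0.18 SE, adjusted p = 0.207). Tuba1b measured 879, 1029, 989.6 and 967 FPKM with morphine and 1011, 915, 639 and 954 FPKM with saline (0.15 ± 0.15 SE, adjusted p = 0.618). Saline replicate 3 was again lowest. Tuba4a measured 393, 448, 438 and 359 FPKM with morphine and 474, 489, 302 and 389 FPKM with saline (0.01 ± 0.16 SE, adjusted p = 0.989). Its groups overlapped over most of their range, and 47.2% of its windows are shared, mainly with Stk16 on the other strand.

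Tuba8 and Tuba1c are minor alpha tubulins in brain. Tuba8 had the largest positive difference of the 37 genes and did not pass (1.00 ± 0.39 SE, adjusted p = 0.188). It measured 27.3, 24.8, 21.2 and 64.5 FPKM with morphine, against 21.7, 20.0, 6.67 and 17.0 FPKM with saline. Morphine replicate 4 stood far above the other 7 values and saline replicate 3 far below. Tuba1c, the third gene of the Tuba1 cluster, lay between 0.85 and 1.51 FPKM with morphine and between 1.38 and 2.06 FPKM with saline (−0.37 ± 0.15 SE, adjusted p = 0.204). That is about 24 to 42 fragments with morphine and 34 to 62 with saline. Of its windows, 56.7% are shared, mainly with the far more abundant Tuba1b, so these few fragments cannot be assigned to Tuba1c with certainty.

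The groups were apart in the make-up of the alpha tubulin pool and overlapped in its size. The summed alpha tubulin level was 3091, 3761, 3654 and 3419 FPKM with morphine and 3278, 3021, 2031 and 3154 FPKM with saline, with saline replicate 3 lowest. Tuba1a held 57.9, 60.04, 60.3 and 59.3% of that sum with morphine and 54.0, 52.8, 53.3 and 56.8% with saline. Tuba1b held 28.4, 27.4, 27.1 and 28.3% with morphine and 30.8, 30.3, 31.5 and 30.3% with saline. Neither pair of groups overlapped. Saline replicate 3, which was lowest in both levels, lay among the other saline libraries in its Tuba1a share. Its Tuba1b share was the highest of the 8 libraries. Tuba1a lies 15271 bases from Tuba1b on chromosome 15, minus strand, GRCm38. Their coding sequences differ at 23 of 1353 bases. In all, 70.4% of the windows of Tuba1a and 78.3% of those of Tuba1b occur in transcripts of some other gene. The gene met most often was Tuba1c, with 690 of the 1218 shared windows of Tuba1a and 892 of the 1307 of Tuba1b. The shares therefore rest on how reads were apportioned among such genes.

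The beta tubulin pool was larger in every morphine library, at 2513, 2687, 2778 and 2567 FPKM, against 2373, 2156, 1607 and 2171 FPKM with saline. Tubb2a held 35.7, 36.3, 39.6 and 39.5% of it with morphine and 31.1, 30.1, 30.1 and 32.3% with saline. Tubb4a held 24.7, 24.0, 20.9 and 22.1% with morphine and 27.9, 28.2, 27.9 and 25.1% with saline. Neither pair of groups overlapped. The shares of Tubb5, Tubb4b, Tubb3, Tubb2b and Tubb6 overlapped between the groups. Shares within a class are not independent of each other and were given no test. Alpha and beta tubulins together made up 1.24 ± 0.0933% of all FPKM with morphine and 0.984 ± 0.152% with saline (SD, n = 4 each).

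**Figure D2:**
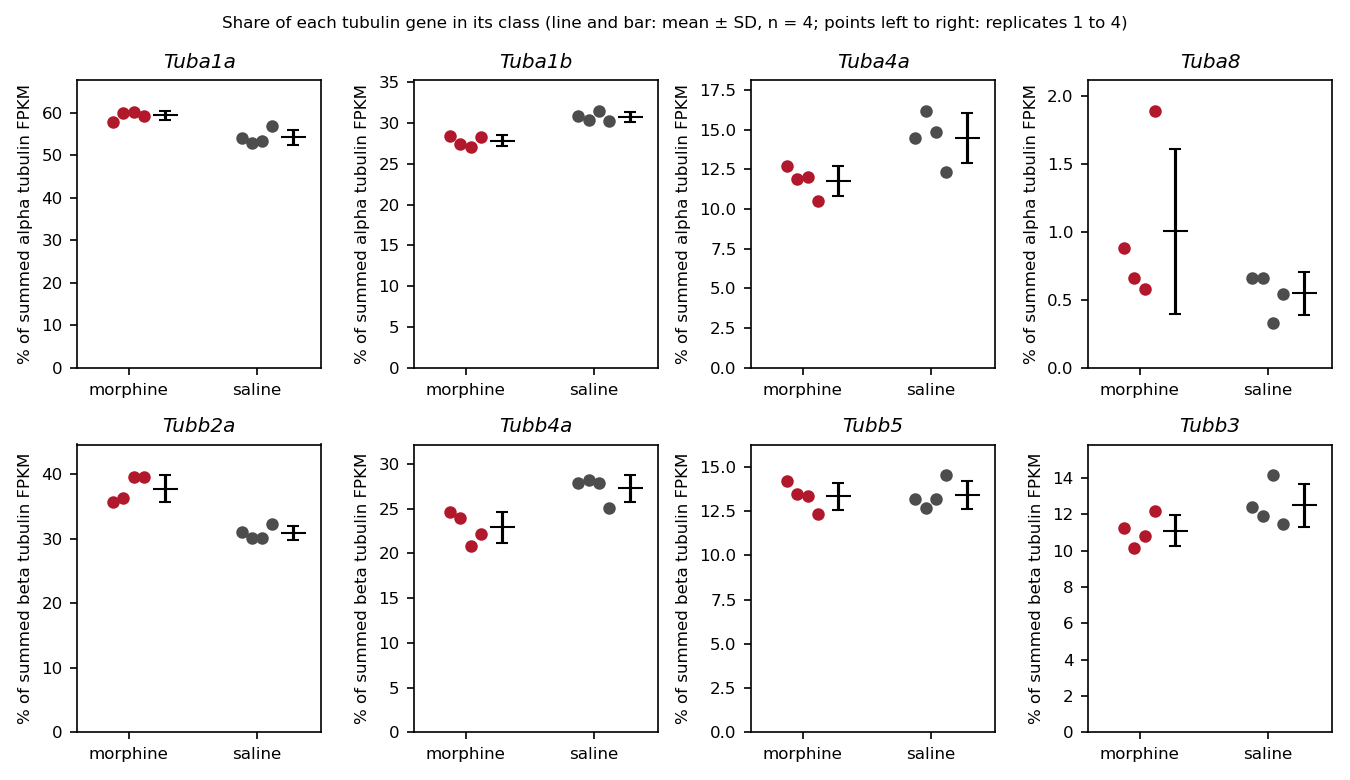
Share of 8 tubulin genes in the summed FPKM of their class (percent, vertical axes from 0) in each of 4 morphine and 4 saline libraries, with the mean and SD beside the points. Tuba1a and Tubb2a take a larger share in every morphine library, Tuba1b and Tubb4a a smaller one, and the other 4 genes overlap.

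Gamma tubulins, which start new microtubules, were tightly spaced with morphine. Tubg1 measured 39.6, 40.9, 39.3 and 40.8 FPKM with morphine and 34.5, 32.7, 36.2 and 36.4 FPKM with saline (0.20 ± 0.09 SE, adjusted p = 0.251). Tubg2, the form enriched in brain, measured 52.6, 52.4, 54.4 and 53.8 FPKM with morphine and 42.2, 51.0, 36.1 and 49.1 FPKM with saline (0.26 ± 0.12 SE, adjusted p = 0.245). Both were higher in every morphine library and neither passed; at an unadjusted p under 0.05 limma had Tubg2 alone.

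Of the 12 structural microtubule-associated proteins, 9 had a positive difference and none passed in limma, with 2 higher and 1 lower at an unadjusted p under 0.05. Map2, the dendritic stabiliser, measured 362, 476, 407 and 365 FPKM with morphine and 278, 309, 219 and 381 FPKM with saline. Saline replicate 4 lay among the morphine values and saline replicate 3 was lowest (0.46 ± 0.17 SE, adjusted p = 0.164). Mapt, the tau gene, measured 166, 148, 154 and 125 FPKM with morphine and 118, 119, 112 and 137 FPKM with saline (0.28 ± 0.11 SE, adjusted p = 0.198). Only morphine replicate 4 and saline replicate 4 crossed over.

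Map1b, which acts in growing axons, measured 199, 153, 122 and 157 FPKM with morphine and 124, 147, 99.4 and 150.2 FPKM with saline (0.27 ± 0.17 SE, adjusted p = 0.410). Map1a, its counterpart in mature neurons, measured 79.3, 72.6, 67.5 and 56.9 FPKM with morphine and 53.6, 70.6, 61.4 and 68.2 FPKM with saline (0.12 ± 0.13 SE, adjusted p = 0.660). Both pairs of groups overlapped. Map6, which makes microtubules stable to cold, measured 46.7, 40.4, 44.9 and 39.9 FPKM with morphine and 34.3, 35.2, 52.3 and 41.9 FPKM with saline (0.09 ± 0.14 SE, adjusted p = 0.773). The related Map6d1 lay between 13.1 and 18.4 FPKM with morphine and between 15.4 and 24.8 FPKM with saline (−0.43 ± 0.17 SE, adjusted p = 0.186). Here the saline libraries held the 3 highest values. Map4, the form common outside neurons, measured 88.1, 98.2, 76.4 and 95.3 FPKM with morphine and 86.4, 92.0, 102 and 104 FPKM with saline (−0.10 ± 0.11 SE, adjusted p = 0.652). Map7d2, a relative of Map7, measured 28.9, 29.4, 19.1 and 22.5 FPKM with morphine and 23.8, 20.6, 15.4 and 25.4 FPKM with saline (0.22 ± 0.18 SE, adjusted p = 0.533). The groups of both overlapped. The remaining Map7, Map7d1, Map9 and Map1s had differences between −0.15 and 0.37, and Map7d1 was at 21.7 FPKM in morphine replicate 1 and 53.0 to 61.3 FPKM in the other morphine libraries. Saline replicate 3 held the highest of the 8 values of Map1s, Map6, Map6d1 and Map7d1 and the lowest of Map2, Map1b, Mapt, Map9 and Map7d2, so this class did not shift as a block in that library.

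Stathmins had the largest median difference of the classes, 0.43, and none passed; at an unadjusted p under 0.05 limma had 2 of 4, both higher. Stmn1 measured 1231, 1167, 1095 and 963 FPKM with morphine and 898, 764, 289 and 905 FPKM with saline. Every morphine value lay above every saline value, and saline replicate 3 stood far below the other 7 libraries (0.77 ± 0.32 SE, adjusted p = 0.21). Without it the difference was 0.38 (adjusted p = 0.151). Stmn2, which acts in growth cones and axon repair, measured 276, 275, 249 and 192 FPKM with morphine and 230.3, 191, 87.0 and 227 FPKM with saline (0.51 ± 0.28 SE, adjusted p = 0.336; 0.19 without saline replicate 3), and its groups overlapped.

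Stmn3, a neuronal member of the family, measured 879, 735, 807 and 766 FPKM with morphine and 874, 697, 468 and 635 FPKM with saline (0.29 ± 0.17 SE, adjusted p = 0.395). Stmn4, also neuronal, measured 209, 182, 171 and 201 FPKM with morphine and 181, 148, 119 and 156 FPKM with saline (0.35 ± 0.13 SE, adjusted p = 0.184). In each of them 1 saline library, replicate 1, reached the morphine range. All 4 stathmins were lowest of the 8 libraries in saline replicate 3. Their median difference was 0.21 without that library and −0.48 with the striatal markers as a covariate.

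Among the neurofilament genes Nefl fell, Nefm was lower without passing, and Ina and Nefh differed by less than their spread. Nefl (ENSMUSG00000022055, chromosome 14, 68083863 to 68089095, plus strand, GRCm38) measured 167, 157, 97.5 and 109.8 FPKM with morphine and 225, 245, 225 and 192 FPKM with saline. Every morphine value lay below every saline value, morphine replicates 3 and 4 were lowest, and saline replicate 3 was not apart from its group. The means were 133 ± 34.2 FPKM with morphine and 222 ± 22.0 FPKM with saline (SD, n = 4 each), and Nefl fell by 0.77 (± 0.17 SE, adjusted p = 0.0479). The call held without morphine replicate 1 (adjusted p = 0.0483) or saline replicate 4 (adjusted p = 0.0471) and was lost without any other single library (adjusted p = 0.0642 to 0.139). The difference was −0.76 without saline replicate 3 (adjusted p = 0.0651) and −0.63 ± 0.33 SE with the striatal markers as a covariate.

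Nefm, the medium subunit, measured 26.5, 32.7, 18.6 and 17.9 FPKM with morphine and 36.9, 45.1, 40.9 and 28.2 FPKM with saline. Morphine replicate 2 lay above saline replicate 4, and Nefm did not pass (−0.66 ± 0.20 SE, adjusted p = 0.109). Nefl and Nefm are neighbours on opposite strands. The longer Nefm transcript overlaps 1108 of the 3380 exonic bases of Nefl, while the shorter lies 30187 bases away. No strand marking is named for the library kit, and without it reads in that stretch cannot be told apart. Nefl stood 6.30, 4.79, 5.25 and 6.12 times as high as Nefm with morphine and 6.09, 5.42, 5.51 and 6.80 times with saline.

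The other subunits did not follow Nefl in all libraries. Ina, alpha-internexin, measured 37.5, 58.4, 51.0 and 55.3 FPKM with morphine and 60.04, 62.2, 39.5 and 41.7 FPKM with saline, and the groups overlapped, with a difference of 0.00 ± 0.18 SE. Nefh, the heavy subunit that marks thick axons, measured 5.43, 6.23, 5.32 and 4.45 FPKM with morphine and 8.68, 7.93, 3.40 and 5.69 FPKM with saline (−0.17 ± 0.23 SE). Saline replicate 3 was lowest for Nefh, and without it the difference was −0.40 (adjusted p = 0.244). Nefl made up 70.6, 61.7, 56.6 and 58.6% of the summed neurofilament and Ina level with morphine and 68.0, 68.0, 72.9 and 71.7% with saline. Only morphine replicate 1 lay within the saline range. Over 13 markers of oligodendrocytes, which wrap such axons, the summed level was 2040 to 3238 FPKM with morphine and 3248 to 3698 FPKM with saline. Their mean level on the log2 scale overlapped between the groups, at 5.07 to 5.75 with morphine and 5.66 to 5.93 with saline. None of these markers passed, and morphine replicate 3 was lowest in that list. What this contributes to the Nefl result was not tested.

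**Figure D3:**
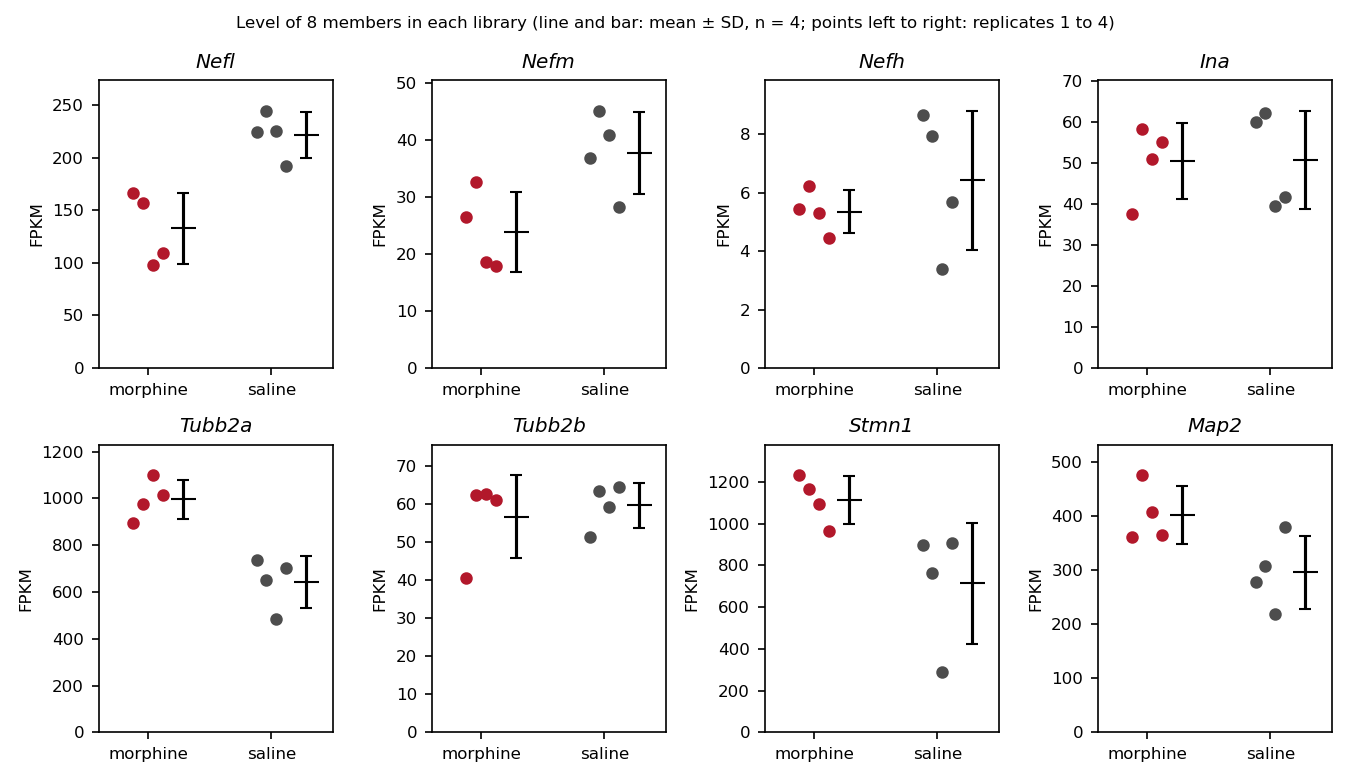
FPKM of 8 genes (vertical axes from 0) in each of 4 morphine and 4 saline libraries, with the mean and SD beside the points. Nefl is lower and Tubb2a and Stmn1 are higher in every morphine library, Nefm and Map2 overlap slightly, and Nefh, Ina and Tubb2b overlap widely.

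Gap43, Dclk1 and Dcx, taken here as genes of growing and newly formed neurons, did not pass. Gap43, a growth cone protein, measured 409, 326, 338 and 308 FPKM with morphine and 307, 243, 249 and 317 FPKM with saline, and only saline replicate 4 reached the morphine range (0.31 ± 0.13 SE, adjusted p = 0.226). Dclk1, a doublecortin-like kinase gene, measured 211, 242, 194 and 194 FPKM with morphine and 199.7, 225, 213 and 228 FPKM with saline (−0.05 ± 0.11 SE, adjusted p = 0.847), and its groups overlapped. Dcx, a marker of migrating neuroblasts, measured 2.75, 7.11, 5.81 and 8.99 FPKM with morphine and 2.42, 3.88, 5.11 and 7.35 FPKM with saline. The spread within each group was wider than the difference between them (0.32 ± 0.33 SE). Over 7 other markers of immature neurons the median difference was 0.71, and none passed. Their mean level on the log2 scale overlapped between the groups, at 2.64 to 3.27 with morphine and 2.04 to 2.99 with saline.

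**Figure D4:**
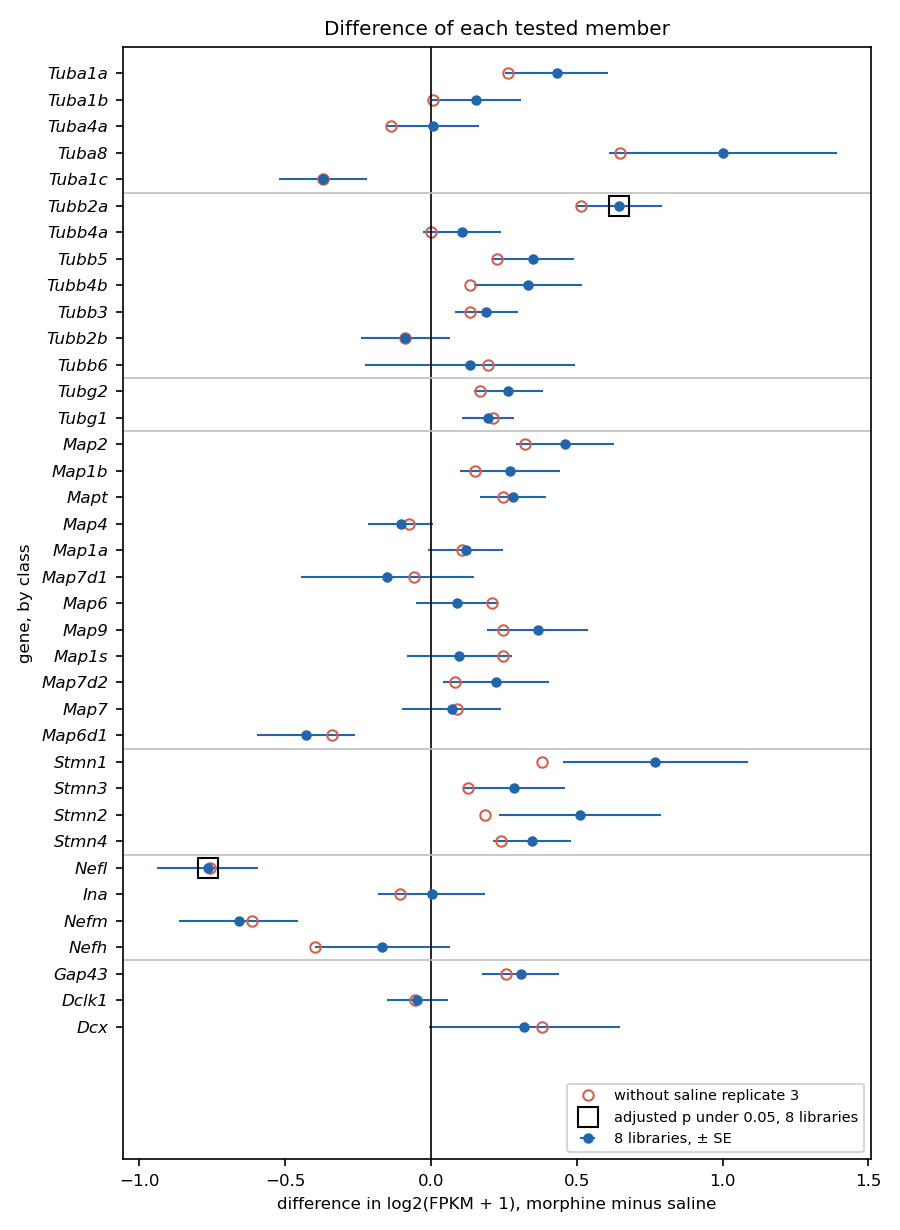
Difference in log2(FPKM + 1), morphine minus saline, of the 37 tested genes, with 8 libraries (filled, ± SE) and without saline replicate 3 (open). Only Nefl (−0.77) and Tubb2a (0.64) pass with 8 libraries, 28 of the 37 differences are positive, and the difference of Stmn1 is 0.77 with 8 libraries and 0.38 without saline replicate 3.

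Other genes of the neuronal skeleton and of the growth cone were read from 10 lists. Of 174 tested, 3 rose and none fell, where 1.04% of all tested genes rose and 1.48% fell. At an unadjusted p under 0.05, 26 were higher and 7 lower, where 10.0% and 10.1% of all tested genes were. The largest median, 0.46, was that of 15 growth cone and collapsin response mediator genes, all with positive differences, against 0.01 over all genes (0.37 and 14 positive without saline replicate 3, 0.21 and 9 positive with the striatal covariate). In that list 2 rose. Fscn1, which bundles actin in growth cones, measured 125, 169, 134 and 136 FPKM with morphine and 83.1, 88.5, 96.2 and 102 FPKM with saline (0.60 ± 0.12 SE, adjusted p = 0.0365; 0.0337 and 0.0368 without saline replicate 4 or 3, and 0.0558 to 0.110 without any other single library). Dpysl3, a collapsin response mediator that binds tubulin, measured 23.4, 31.7, 27.7 and 27.3 FPKM with morphine and 15.8, 15.7, 13.6 and 22.6 FPKM with saline (0.69 ± 0.16 SE, adjusted p = 0.0495; 0.0175 without saline replicate 4 and 0.0729 to 0.139 without any other single library). Its call was lost in 15 of the 16 alternatives, and with the striatal covariate its difference was 0.35 (adjusted p = 0.729). The groups of both genes did not overlap.

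Among 23 genes of dynein and dynactin, the motor complex that runs towards microtubule minus ends, 1 rose. Dync1i1, the neuronal intermediate chain, measured 78.4, 96.7, 86.2 and 130.1 FPKM with morphine and 59.7, 52.9, 52.7 and 62.2 FPKM with saline (0.75 ± 0.15 SE, adjusted p = 0.0381; 0.0415 and 0.0387 without morphine replicate 1 or saline replicate 4, and 0.0512 to 0.101 without any other single library). Every morphine value lay above every saline value. Among 21 tubulin folding genes, the chaperonin and cofactors that make tubulin ready to assemble, 20 had a positive difference, where 52.01% of all tested genes had, and none passed (median 0.16; 3 higher at an unadjusted p under 0.05). Of the 21, 18 were positive without saline replicate 3 and 14 with the striatal covariate.

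The remaining lists held no gene that passed in limma. Kinesin motors had a median of 0.15 over 15 tested genes (4 higher at an unadjusted p under 0.05), and end-binding and severing proteins 0.15 over 20 (4 higher, 1 lower). Tubulin modifying enzymes had a median of 0.04 over 19 (3 higher, 2 lower), and genes of the gamma tubulin ring and augmin 0.02 over 16 (1 higher, 1 lower). Tau kinases and phosphatases had −0.02 over 20 (1 higher, 1 lower), other microtubule-associated genes −0.05 over 16 (1 higher, 1 lower), and other intermediate filament and linker genes −0.03 over 9 (none in either direction).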

How the data were processed

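The authors deposited 1 table of FPKM values with a column per library, per the file headers. Per the labels' protocols, RNA was extracted with Trizol, and full-length cDNA came from oligo-dT priming and template switching with PCR amplification before NovaSeq sequencing; neither molecular identifiers nor strand marking are named. The submitters' processing notes name RSEM, HISAT2, StringTie 1.3.1, fastp 0.18.0, Bowtie2 2.2.8 and mm10, without roles or annotation. No read counts were used. For genes with 1 annotated transcript, a step per library was fitted to the low values of FPKM times length. Of these values, 79.5 to 90.5% fell within 0.15 of whole multiples of the step. Evenly spread values give 30% for a step fixed beforehand, whereas the step here was chosen to fit these same values. That step corresponds to about 12310000 to 19290000 fragments per library, from which the printed fragment numbers were estimated.

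Of 22337 genes, 22232 matched GENCODE M21 (GRCm38, the assembly of mm10), which gave symbols and 1-based coordinates. The log2(FPKM + 1) values, computed here from the deposited FPKM, of genes at 1 FPKM or more in at least 4 libraries were fitted with limma 3.58.1 in R 4.3.3 (variance trend, two-sided, no block, threshold 0.05). In simulated data for this comparison (12536 genes), limma found 79.3% of genes shifted by a log2 value of 1 and 97.7% of genes shifted by 2. Of its calls, 4.17% were false. The simulated noise was independent between genes, without the shifts shared by many genes of a library seen here, so these rates need not hold for these data. The simulated shifts were also larger than the differences of Nefl and Tubb2a. The 40 genes and the lists were chosen with earlier results of these data known. Described in full were the genes that passed and a set list of 29, and per pathway list at most the 4 passing genes of smallest p. Tuba8, Tuba1c, Tubb4b, Map6d1 and Map7d1 were singled out after their values were seen. Cell type lists leave out the 40 genes. The 75-base windows were compared on both strands with all GENCODE transcripts, and promoter windows on chromosome 18 were left out.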

Additional observations from a re-analysis of the deposited data

Results flagged for a closer look

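In 7 of 77 groups of 4 libraries, where chance gives about 3.9 (1 in 20), 1 library stood apart by Dixon's criterion. The value given first in each bracket is the gap between that library and its nearest neighbour as a share of the group's whole range, on the log2(FPKM + 1) scale. In the morphine libraries, replicate 1 was lowest for Tubb2b (0.939; 40.6 FPKM, others 61.1 to 62.8) and for Map7d1 (0.859; 21.7 FPKM, others 53.0 to 61.3). In the saline libraries, replicate 3 was lowest for Tubb4b (0.894; 173 FPKM, others 293 to 312) and for Stmn1 (0.851; 289 FPKM, others 764 to 905), and replicate 2 was lowest for Tubb6 (0.843; 1.66 FPKM, others 2.68 to 2.91). Tuba3a in morphine replicate 1 (0.07 FPKM) and Tubb1 in saline replicate 3 (0.19 FPKM) stood alone above groups listed at 0 (1.0 for each).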

How the results depend on the processing

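Fold changes were recomputed under 16 alternatives. Of 590 values for the 37 genes, 528 kept their direction and their side of the threshold, 23 lost their call (all of Nefl or Tubb2a) and 39 turned direction. The limma call of Nefl was kept in 5 alternatives and lost in 11 (difference −0.89 to −0.63, adjusted p = 0.0400 to 0.561), and that of Tubb2a was kept in 4 and lost in 12 (0.11 to 0.72, adjusted p = 0.0348 to 0.905). Of the pathway genes, the call of Fscn1 was kept in 6 alternatives and lost in 10, that of Dync1i1 kept in 7 and lost in 9, and that of Dpysl3 kept in 1 and lost in 15; none turned direction. The lowest fragment numbers were those of Tuba1c (24 to 42 with morphine, 34 to 62 with saline) and Tubb6 (36 to 186 with morphine, 42 to 75 with saline).

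With no filter on low values, 8 genes rose and 9 fell over the whole table, and 0 of the skeleton genes passed in either direction (13 at an unadjusted p under 0.05 in limma). With a minimum of 5 FPKM, 111 genes fell and 0 skeleton genes rose or fell (14 unadjusted). Rescaled to TPM, 0 skeleton genes fell and 1 rose. With mitochondrial genes removed, 77 genes rose and 219 fell, so 26.0% of calls were higher, against 41.1%. With median of ratios scaling, 0 skeleton genes rose and 1 fell. Scaling turned Tuba4a and Ina (−0.0398 and −0.0435 with mitochondrial genes removed, −0.0226 and −0.0263 with median of ratios).

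The replicate numbers share no stated origin, and libraries of the same number correlated at 0.0522, 0.0375, −0.0592 and −0.205. With the replicate block, 2 genes rose and 3 fell over the whole table and 0 skeleton genes in either direction (10 unadjusted). Only morphine replicate 2 correlated best with the library of its own number, and no saline library did.

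With the striatal marker mean as a covariate, 2 genes rose and 1 fell over the whole table, 0 skeleton genes passed in either direction (5 unadjusted), and the median was −0.11. The groups did not overlap in that mean, so this fit tells its effect and that of morphine apart poorly. Directions turned for Tuba1a (−0.24), Tuba1b (−0.43), Tuba4a (−0.58), Tuba8 (−0.42), Tubb4a (−0.30), Tubb5 (−0.10), Tubb4b (−0.45), Tubb3 (−0.0569), Tubg2 (−0.11), Map2 (−0.0491), Map1b (−0.0789), Map4 (0.0446), Map9 (−0.0243), Map7d2 (−0.19), Stmn1 (−0.65), Stmn3 (−0.31), Stmn2 (−0.65), Stmn4 (−0.0189) and Ina (−0.56); the cause was not tested.

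Leaving out 1 library at a time gave 0 to 198 genes that rose and 0 to 252 that fell. The 0 came without morphine replicate 3, morphine replicate 4 or saline replicate 2 (1953, 2136 and 2005 genes unadjusted). It gave 0 to 1 skeleton genes in each direction and a median of 0.13 to 0.20. The direction turned in some of these for Tuba4a (−0.14 to 0.0944), Tubb4a (−0.0009 to 0.19), Tubb2b (−0.16 to 0.063), Tubb6 (−0.25 to 0.43), Map7 (−0.0517 to 0.18), Map7d1 (−0.29 to 0.19) and Ina (−0.11 to 0.14).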
